A study of Homo sapiens with 24 samples.

Results

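The genes described here are 10 members of the FLT3 and STAT5 signalling pathway, chosen by symbol from the 23354 genes of the table of read counts. They are the receptor FLT3, the transcription factors STAT5A and STAT5B, the kinases PIM1 and PIM2, the inhibitors SOCS2 and CISH, and the ERK feedback inhibitors DUSP6, SPRY2 and SPRED1. RefSeq (GRCh38.p14) places FLT3 and SPRY2 on chromosome 13, STAT5A and STAT5B on 17, PIM1 on 6, PIM2 on X, CISH on 3, DUSP6 on 12 and SPRED1 on 15.

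FLT3 is a receptor tyrosine kinase of blood progenitors. When its ligand binds, or when a tandem duplication keeps the receptor active, it phosphorylates STAT5 and switches on the RAS, MEK and ERK cascade. STAT5 binds DNA as a dimer and induces PIM1 and PIM2, which are survival kinases, and CISH and SOCS2, which feed back on cytokine receptors. ERK activity induces DUSP6, which dephosphorylates ERK, and the Sprouty and Spred proteins, which restrain RAS and RAF, so the RNA of these genes is widely read as a gauge of pathway output. The counts measure RNA and do not show the phosphorylation of any of these proteins.

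The RNA came from 2 established human acute myeloid leukemia (AML) lines, MV4-11 and KG-1a, left untreated or exposed to 1 μM 8-chloro-adenosine (8CA) or 1 μM 8-amino-adenosine (8AA) for 8 h or 24 h. 8CA and 8AA are adenosine analogs that differ in the group on the base, a chlorine atom in 8CA and an amino group in 8AA. Each of the 12 groups (2 lines, 3 treatments, 2 times) had 2 libraries, named replicate A and replicate B, and untreated cells of the same line and time were the controls. MV4-11 is known to carry an internal tandem duplication of FLT3 and a KMT2A fusion, and KG-1a is known as an immature subline of KG-1; reads counted per gene show neither the duplication nor a fusion. Each line stands for 1 origin, and nothing in the labels says that the 2 libraries of a group came from separate cultures, so the p-values measure the spread between these libraries, which may be technical.

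Libraries held 18633963 to 24520078 counts. The pair of KG-1a 24 h 8AA libraries differed most, with a chi-square per degree of freedom of 12.25 against 1.43 to 5.20 in the other 11 pairs, and the changes of the members that rest on it are also given without each of its libraries. LYZ, CD33 and SPI1, which mark myeloid cells, were present in every MV4-11 library (LYZ 2665 to 3773 CPM, a gene's count scaled to the size of its library with TMM factors), with CD34 at 0.174 CPM or less. KG-1a had CD34 at 325 to 629 CPM and PTPRC at 688 to 788 CPM. The other progenitor genes were low there, CD38 at 1.91 to 11.4 CPM and PROM1 at 1.71 to 3.97 CPM. In KG-1a LYZ reached only 1.33 CPM, CD33 1.02 CPM and SPI1 7.81 CPM, so the defining myeloid markers of this line were near 0 or low. Its T cell genes CD3D and CD3E stood at 174 to 264 CPM and 22.2 to 78.3 CPM, but CD3G reached only 0.96 CPM.

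In untreated cells the receptor separated the lines most among the members. FLT3 had 8269 to 10752 counts in each of the 4 untreated MV4-11 libraries and 3 to 18 counts in each of the 4 untreated KG-1a libraries. Summed over these libraries, 38604 counts stood against 44, a ratio per TMM-scaled total of 847 (95% interval 631 to 1166, counting error only). Per kb of exon length, FLT3 ranked 501st of the 12800 genes tested in MV4-11, at 118 ± 9.62 CPM per kb (SD, n = 4). It was the highest of the members there and among the lowest in KG-1a, at 0.139 ± 0.0848 CPM per kb (SD, n = 4).

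STAT5A, STAT5B and PIM1 stood higher in KG-1a, the line with little FLT3 RNA. Whether another kinase was active upstream of these genes in KG-1a was not measured. STAT5A was at 36.8 ± 2.36 CPM per kb in KG-1a and 7.85 ± 0.357 in MV4-11 (SD, n = 4 each), a log2 difference of -2.23 ± 0.04 (SE; MV4-11 minus KG-1a). PIM1 was at 69.1 ± 2.01 CPM per kb in KG-1a and 24.7 ± 2.17 in MV4-11 (SD, n = 4 each), a difference of -1.49 ± 0.03. STAT5B differed less, by -0.81 ± 0.03, and SPRY2 differed by -1.94 ± 0.10. For each of these genes the lowest KG-1a library lay above the highest MV4-11 library.

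SOCS2 went the other way, with 6.81 ± 0.277 CPM per kb in MV4-11 and 1.35 ± 0.138 in KG-1a (SD, n = 4 each), a log2 difference of 2.33 ± 0.06. SPRED1 had 0 to 3 counts in the untreated MV4-11 libraries, at or under the floor of 3 counts, and 15 to 26 in those of KG-1a. Summed, 5 counts stood against 74, a ratio per TMM-scaled total of 15.3 in favour of KG-1a (95% interval 6.28 to 48.6, counting error only).

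PIM2, CISH and DUSP6 differed little between the lines. The log2 differences were 0.16 ± 0.06 for PIM2, -0.15 ± 0.05 for CISH and -0.27 ± 0.06 for DUSP6 (SE), and the libraries of the lines overlapped for PIM2 and DUSP6. Without KG-1a 8 h untreated replicate B, PIM2 no longer passed the test (0.10, adjusted p = 0.113), nor without KG-1a 24 h untreated replicate A (0.12, adjusted p = 0.0774). The 9 members other than SPRED1 all passed edgeR's quasi-likelihood test for the line difference, beside 87.4% of all 14055 genes tested, so the count itself sets the members apart from nothing.

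Within MV4-11 the order per kb was FLT3, PIM1, CISH, PIM2, STAT5B, DUSP6, STAT5A, SOCS2, SPRY2 and SPRED1, and the 4 libraries of each gene overlapped with those of no neighbour. Within KG-1a it was PIM1, STAT5A, STAT5B, CISH, PIM2, DUSP6, SPRY2, SOCS2, FLT3 and SPRED1. There STAT5B overlapped with CISH, and FLT3 with SPRED1.

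**Figure D1:**
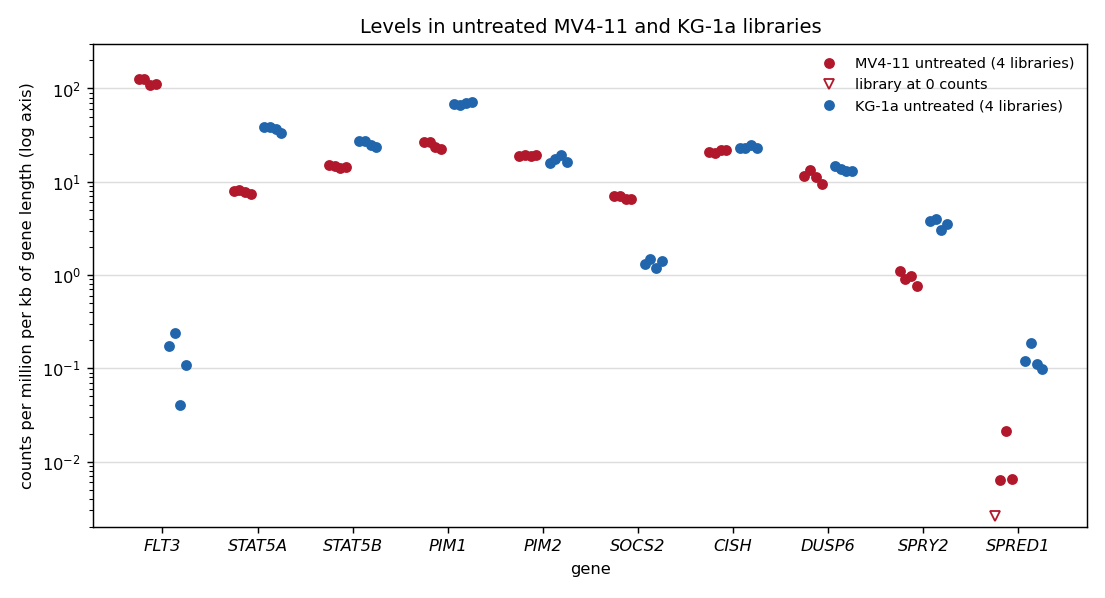
Level of each gene in the untreated libraries, in CPM per kb of exon length on a log axis; each point is 1 of the 4 untreated libraries of a line, and an open triangle marks a library at 0 counts. FLT3 lies near 118 in MV4-11 and near 0.139 in KG-1a, while PIM2, CISH and DUSP6 lie close together in both lines.

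Time in culture without a drug moved few members past edgeR's quasi-likelihood test. At an unadjusted p under 0.05 by that test there were 3 of 9 in MV4-11 and 5 of 9 in KG-1a. In untreated MV4-11, 2 of the 9 members tested were higher at 24 h than at 8 h, beside 5.54% of all genes called in either direction. FLT3 was at 426 and 440.4 CPM at 8 h and 498 and 499 CPM at 24 h (log2 0.20 ± 0.04, SE; adjusted p = 0.00823), and PIM1 rose by 0.22 ± 0.05 (adjusted p = 0.0271). In KG-1a 1 of 9 was higher, STAT5B by 0.20 ± 0.04 (adjusted p = 0.0222), beside 4.45%. STAT5B lost its call without any 1 of its 4 libraries (adjusted p = 0.0511 to 0.176), as did PIM1 (0.0656 to 0.183). FLT3 lost it without MV4-11 8 h untreated replicate A or either 24 h untreated library (0.0615 to 0.0783).

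Treatment moved most members by less than 1 log2 unit. In MV4-11 the members called went both ways in each response, and in KG-1a, SPRED1 aside, only with 8AA at 24 h. After 8CA at 8 h in MV4-11, 1 of 9 members was higher and 2 were lower, where 4.58% and 5.77% of the 12800 genes tested were called higher and lower. After 8AA at 8 h it was 5 higher and 2 lower, beside 13.6% and 15.6%. At 24 h, 4 were higher and 1 lower with 8CA, beside 21.2% and 22.7%. With 8AA at 24 h it was also 4 and 1, beside 13.9% and 15.3%. Single untreated libraries weighed on these counts. Without untreated replicate A at 8 h the members called fell from 3 to 1 with 8CA and from 7 to 4 with 8AA, and without untreated replicate B at 8 h from 7 to 3 with 8AA. At 24 h they went from 5 to 3 with 8CA without untreated replicate B, and from 5 to 2 with 8AA without 8AA replicate B. SPRED1 did not pass the filter on low counts in MV4-11, with 0 to 3 counts per library. In KG-1a it passed only through the groups where it is high, so it is left out of the counts of members called and its test is not read.

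In KG-1a, 8CA at 8 h moved 0 of the 9 members by edgeR's quasi-likelihood test, with 2 at an unadjusted p under 0.05. This stood beside 0.7% of 12711 genes called higher and 0.181% called lower. DESeq2 called 0 of 8 members and gave FLT3 no adjusted p. 8AA at 8 h lowered 3 and raised 0, beside 18% called lower and 16.7% called higher. 8CA at 24 h raised 6 and lowered 0, beside 23.4% and 24%. 8AA at 24 h raised 3 and lowered 1, beside 25.4% and 26.6%, and the 4 members called there were 3 without 8AA replicate A, 4 without 8AA replicate B and 2 without untreated replicate A. These values are shares of a library's RNA, so fewer cells of one kind in a culture and less RNA per cell cannot be told apart. A rise or fall is thus relative to the other RNA of the library, and the change per cell was not measured.

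**Figure D2:**
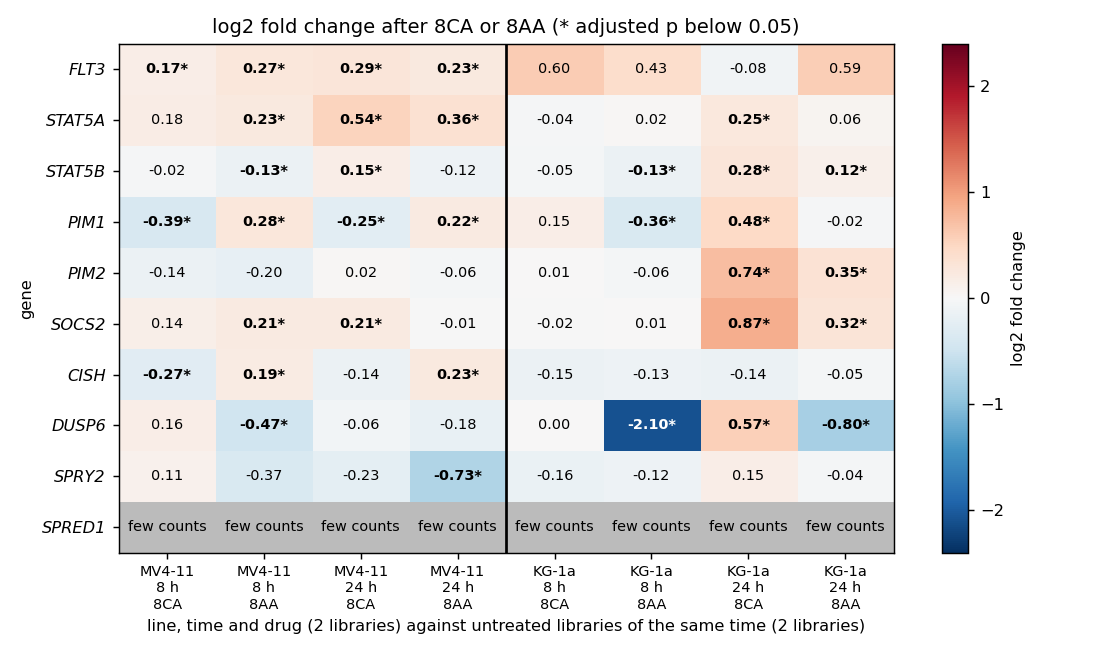
log2 fold change of each gene (rows) after 8CA or 8AA against untreated libraries of the same line and time (columns, 2 libraries against 2), with an asterisk where the adjusted p was below 0.05; grey cells mark SPRED1, which had few counts. The deepest fall is that of DUSP6 (-2.10) with 8AA at 8 h in KG-1a, and PIM1 carries opposite signs for the drugs in MV4-11.

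FLT3, the receptor, was slightly higher in all 4 treated groups of MV4-11. At 8 h its level was 426 and 440.4 CPM in the untreated libraries, 481 and 499.7 CPM with 8CA and, for 8AA, 522 and 544 CPM. At 24 h it was 498 and 499 CPM untreated, 622 and 612 CPM with 8CA and, for 8AA, 584 and 600.1 CPM. No treated library overlapped with the untreated libraries of its time. The fold changes were 1.20 with 8AA at 8 h (log2 0.27 ± 0.04, SE; adjusted p = 0.000135), 1.22 with 8CA at 24 h (0.29 ± 0.04, adjusted p = 3.3e-05) and 1.17 with 8AA at 24 h (0.23 ± 0.04, adjusted p = 0.000497).

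The early rise of FLT3 with 8CA was smaller, at 0.17 ± 0.04 (adjusted p = 0.0143), and lost its call without 8CA replicate B (0.14, adjusted p = 0.116) or untreated replicate A (0.14, adjusted p = 0.117). In KG-1a FLT3 had 3 to 28 counts per library over all groups. At 8 h these were 3 to 9 untreated, 7 to 12 with 8CA and 8 to 11 with 8AA. FLT3 stays among the 9 members counted in KG-1a, but so few counts could hide a change. None of its 4 changes there passed the test, and the 95% intervals were wide, for example -0.09 to 1.28 on the log2 scale with 8AA at 24 h (0.71 without 8AA replicate A and 0.48 without replicate B, neither past the test).

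STAT5A, a transcription factor that active FLT3 phosphorylates, rose in MV4-11 at 24 h. Untreated libraries stood at 41.8 and 43.0 CPM, 8CA libraries at 63.4 and 61.7 CPM and 8AA libraries at 56.2 and 54.6 CPM, with no overlap. With 8CA the log2 change was 0.54 ± 0.05 (adjusted p = 1.9e-06), and after 8AA it was 0.36 ± 0.06 (adjusted p = 0.000184), and no single library decided either call. At 8 h the change with 8AA was 0.23 ± 0.06 (adjusted p = 0.00596), which lost its call without 8AA replicate B (0.20, adjusted p = 0.0598) or untreated replicate B (0.19, adjusted p = 0.0667). The change with 8CA at 8 h was 0.18 ± 0.06 and did not pass (adjusted p = 0.0616).

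In KG-1a, where STAT5A is more abundant, it stood at 202 and 201 CPM in the untreated libraries at 24 h, and with 8CA at 238 and 239.6 CPM. This was a rise of 0.25 ± 0.06 (adjusted p = 0.00226). With 8AA at 24 h the libraries stood at 222 and 198 CPM, on both sides of the untreated ones, and the change of 0.06 ± 0.06 did not pass (adjusted p = 0.411). Without 8AA replicate B, a library of the pair that differed most, it was 0.14 and passed (adjusted p = 0.016), and without replicate A it was -0.03.

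STAT5B, the paralog of STAT5A next to it on chromosome 17, moved by small amounts. It rose with 8CA at 24 h in KG-1a, from 151 and 152 CPM to 182 and 185 CPM (0.28 ± 0.04, adjusted p = 7.3e-05). The other called changes were 0.15 ± 0.05 with 8CA at 24 h in MV4-11, -0.13 ± 0.05 and -0.13 ± 0.04 with 8AA at 8 h in MV4-11 and KG-1a, and 0.12 ± 0.04 with 8AA at 24 h in KG-1a. Each of these small changes lost its call without single libraries of its comparison. With 8CA at 24 h in MV4-11 these were 8CA replicate B and untreated replicate B (adjusted p = 0.103 and 0.0993). With 8AA at 8 h in MV4-11 the call went without any of the 4 libraries (0.0685 to 0.212). In KG-1a it went at 8 h without either 8AA library or untreated replicate A (0.091 to 0.17), and at 24 h without 8AA replicate A or either untreated library (0.0606 to 0.196). Any reads shared by the paralogs STAT5A and STAT5B may have been dropped in counting, and the likeness of their sequences was not computed.

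PIM1, a serine/threonine kinase induced by STAT5, moved in opposite directions with the drugs. In MV4-11 at 8 h the untreated libraries stood at 71.1 and 67.7 CPM, the 8CA libraries at 54.0 and 52.7 CPM and the 8AA libraries at 83.7 and 88.0 CPM. The 3 groups did not overlap. PIM1 fell with 8CA by 0.39 ± 0.05 on the log2 scale (adjusted p = 0.000563) and rose with 8AA by 0.28 ± 0.05 (adjusted p = 0.00101).

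At 24 h in MV4-11 the groups again stood apart, at 80.1 and 81.0 CPM untreated, 67.0 and 70.4 CPM with 8CA and, for 8AA, 92.0 and 98.5 CPM. PIM1 fell with 8CA by 0.25 ± 0.05 on the log2 scale (adjusted p = 0.00116), whereas 8AA gave a rise of 0.22 ± 0.05 (adjusted p = 0.00475). Leaving out 8AA replicate B ended the latter call (0.17, adjusted p = 0.062).

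In KG-1a PIM1 fell with 8AA at 8 h and rose with 8CA at 24 h. At 8 h it was at 212 and 217 CPM untreated and 171 and 161 CPM with 8AA (-0.36 ± 0.05, adjusted p = 2.2e-05). With 8CA at 8 h it was at 239 and 237 CPM, a change of 0.15 ± 0.04 that did not pass (adjusted p = 0.137). At 24 h it rose with 8CA from 208 and 203 CPM to 289 and 283 CPM (0.48 ± 0.04, adjusted p = 5.8e-07). With 8AA at 24 h the libraries, at 207 and 197 CPM, overlapped with the untreated ones (-0.02, 95% interval -0.12 to 0.07; -0.06 without 8AA replicate A and 0.01 without replicate B).

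PIM2, the related kinase, rose in KG-1a at 24 h. It stood at 34.5 and 38.7 CPM in the untreated libraries, 61.3 and 61.1 CPM with 8CA and, for 8AA, 47.4 and 45.6 CPM. The log2 changes were 0.74 ± 0.08 (adjusted p = 1.3e-06) and 0.35 ± 0.08 (adjusted p = 0.00137), and both calls held without each library (with 8AA, 0.32 without replicate A and 0.37 without replicate B). In KG-1a at 8 h, 8CA gave 0.01 (95% interval -0.16 to 0.18) and 8AA -0.06 (-0.22 to 0.11). None of the changes of PIM2 in MV4-11 passed, and its level there stayed between 34.5 and 44.1 CPM in all 12 libraries. The lowest of these values came with 8AA at 8 h (-0.20 ± 0.07, adjusted p = 0.0516), and this change passed without 8AA replicate B (-0.30, adjusted p = 0.0166).

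SOCS2, an SH2 protein that curbs cytokine receptors, had the highest rise of any member. In KG-1a at 24 h it went from 7.40 and 8.40 CPM to 13.3 and 15.6 CPM with 8CA, a fold change of 1.83 (log2 0.87 ± 0.12, SE; adjusted p = 1.8e-05). With 8AA it stood at 9.52 and 10.2 CPM (0.32 ± 0.12, adjusted p = 0.0377). Leaving out untreated replicate A (0.21, adjusted p = 0.275) or 8AA replicate B (0.27, adjusted p = 0.108) ended this call, which held without 8AA replicate A (0.36, adjusted p = 0.0355). At 8 h in KG-1a neither drug moved it past the test, with the untreated libraries at 6.59 and 7.92 CPM and the treated libraries at 6.91 to 7.50 CPM.

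In MV4-11 SOCS2 stood at 37.0 and 36.6 CPM untreated at 8 h, and rose to 44.0 and 42.9 CPM with 8AA (0.21 ± 0.06, adjusted p = 0.0123). At 24 h it rose from 39.9 and 39.0 CPM to 47.0 and 45.6 CPM with 8CA (0.21 ± 0.06, adjusted p = 0.00611). The first call was lost without 8AA replicate A or either untreated library (adjusted p = 0.0516 to 0.0783), and the second without 8CA replicate A (0.0534) or untreated replicate B (0.0506). SOCS2 overlaps SOCS2-AS1 on the opposite strand, which had 0.566 to 5.45 CPM and stood highest in the 8CA libraries of MV4-11 at 24 h, at 5.45 and 5.13 CPM. No source used here gives the strand setting of the counting, so reads of the pair cannot be told apart.

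CISH, the family member named for its induction by cytokines, followed the signs of PIM1 in MV4-11. At 8 h it was at 49.6 and 49.4 CPM untreated, 40.3 and 42.5 CPM with 8CA and, for 8AA, 55.8 and 59.3 CPM. The groups did not overlap. It fell with 8CA by 0.27 ± 0.06 (adjusted p = 0.0113) and rose with 8AA by 0.19 ± 0.06 (adjusted p = 0.0249). The fall lost its call without 8CA replicate A (-0.24, adjusted p = 0.0691) or untreated replicate A (-0.27, adjusted p = 0.0534), and the rise without 8AA replicate B or either untreated library (0.15 to 0.19, adjusted p = 0.0855 to 0.15).

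At 24 h in MV4-11, CISH rose with 8AA from 47.0 and 45.9 CPM to 52.6 and 57.7 CPM (0.23 ± 0.06, adjusted p = 0.00901), a call lost without 8AA replicate B (0.16, adjusted p = 0.112) or untreated replicate B (0.20, adjusted p = 0.0792). With 8CA it stood at 42.2 and 43.5 CPM, below both untreated libraries, but did not pass (-0.14 ± 0.06, adjusted p = 0.0768). In KG-1a CISH stayed between 46.4 and 56.6 CPM in all 12 libraries, and its 4 changes, from -0.15 to -0.05, did not pass. The change with 8AA at 24 h was -0.15 without 8AA replicate A and 0.04 without replicate B.

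The promoter of CISH is shown because it is the only one among the members that held the letters of a STAT binding site. In the RefSeq promoters of GRCh38.p14, which cover 250 bases before and 50 after a gene's start, 9 of the 10 members had an entry, and SOCS2 was not among them. The motif searched was TTCNNNGAA, which reads the same on both strands. CISH held it 4 times in that window and the promoters of the other 8 members 0 times. Of all 35116 promoters, 7.66% held it at least once and 0.0199%, or 7 promoters, held it 4 times or more. The 250 bases before the start of CISH, at chr3:50611775-50612024 on the minus strand, are given 5′ to 3′ with the 4 matches in capitals:
CISH promoter: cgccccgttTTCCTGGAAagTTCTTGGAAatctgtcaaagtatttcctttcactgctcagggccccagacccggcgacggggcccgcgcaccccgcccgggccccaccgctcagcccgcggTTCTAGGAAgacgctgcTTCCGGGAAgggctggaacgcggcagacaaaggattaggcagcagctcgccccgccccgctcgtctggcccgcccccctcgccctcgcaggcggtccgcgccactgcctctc
The matches begin 241, 230, 129 and 112 bases before the start and fall into 2 close pairs. A match describes letters only, and the absence of these letters from the short windows of PIM1, PIM2 and the other members says nothing about STAT5 at sites elsewhere in those genes.

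**Figure D3:**
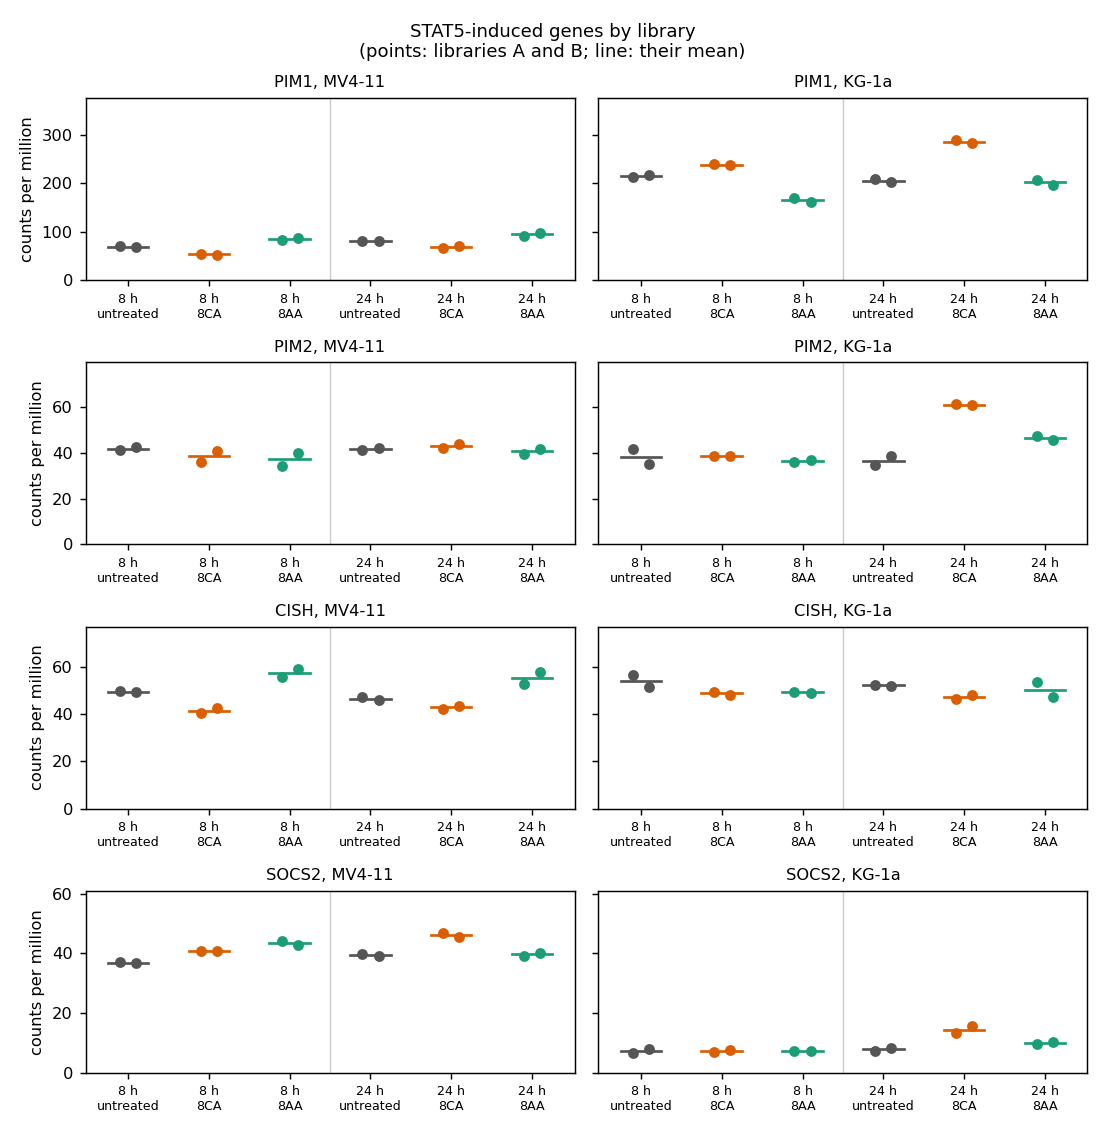
Level (CPM) of PIM1, PIM2, CISH and SOCS2 in each of the 24 libraries, by line (columns), time and treatment; points are replicates A and B and the line is their mean. In MV4-11 PIM1 and CISH lie lowest with 8CA and highest with 8AA at both times, and in KG-1a PIM1, PIM2 and SOCS2 lie highest with 8CA at 24 h.

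DUSP6, the phosphatase that removes phosphate from ERK, showed the deepest fall among the 9 members other than SPRED1. In KG-1a at 8 h it was at 36.4 and 37.1 CPM untreated, 36.1 and 37.5 CPM with 8CA and, for 8AA, 8.29 and 8.79 CPM. The 8AA libraries lay at 0.234 of the untreated level, a log2 change of -2.10 ± 0.08 (adjusted p = 2.6e-10), while the change with 8CA was 0.00 (95% interval -0.15 to 0.15). At 24 h it was at 42.0 and 38.9 CPM untreated, 58.2 and 61.8 CPM with 8CA and, for 8AA, 24.3 and 21.9 CPM. It rose with 8CA by 0.57 ± 0.07 (adjusted p = 4.8e-06) and remained lower with 8AA, by 0.80 ± 0.07 (adjusted p = 2.3e-07). These 3 calls held without each library, those of the 24 h 8AA pair included (-0.89 without replicate A and -0.73 without replicate B).

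In MV4-11 DUSP6 fell with 8AA at 8 h, from 31.4 and 26.8 CPM to 21.8 and 21.0 CPM (-0.47 ± 0.10, adjusted p = 0.00208). At 24 h the 8AA libraries, at 29.6 and 33.7 CPM, overlapped with the untreated ones, at 32.7 and 38.0 CPM (-0.18, 95% interval -0.38 to 0.01). With 8CA the changes were 0.16 ± 0.09 at 8 h and -0.06 ± 0.09 at 24 h, and neither passed.

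SPRY2 had 30 to 70 counts per library in MV4-11. It stood at 3.38 and 2.78 CPM untreated at 24 h and 2.25 and 1.49 CPM with 8AA (-0.73 ± 0.23, adjusted p = 0.0234), a call lost without 8AA replicate B (-0.47, adjusted p = 0.202) or untreated replicate A (-0.59, adjusted p = 0.157). The other 3 changes in MV4-11 and all 4 in KG-1a, where it had 175 to 302 counts per library, did not pass. With 8AA at 8 h in KG-1a, where DUSP6 fell most, the change of SPRY2 was -0.12 (95% interval -0.34 to 0.10). With 8AA at 24 h in KG-1a it was -0.04, and -0.10 and 0.01 without 8AA replicates A and B in turn.

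SPRED1 had few counts in KG-1a. The libraries at 8 h had 15 and 15 counts untreated, 12 and 15 after 8CA, then 1 and 6 after 8AA. At 24 h they had 18 and 26 counts untreated, 13 and 11 after 8CA, then 5 and 5 after 8AA. The 8AA libraries lay below the others of their time at both times, and no fold change or p is given.

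**Figure D4:**
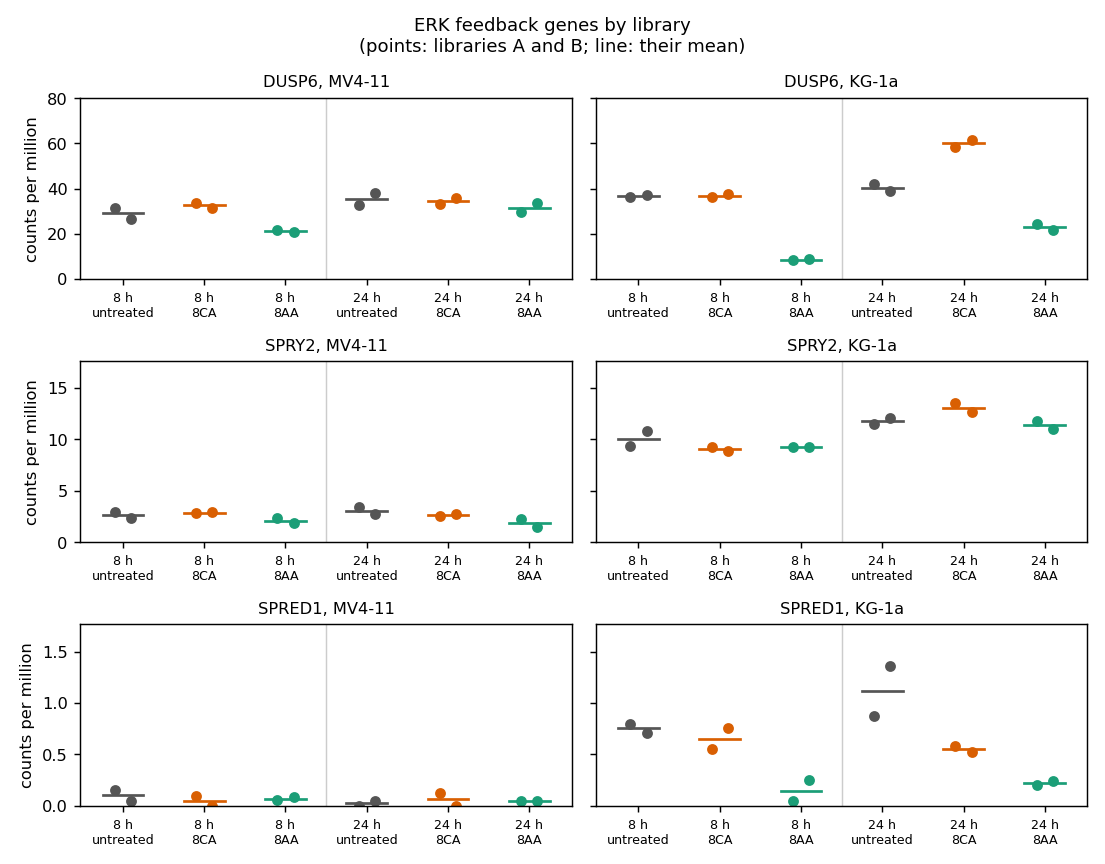
Level (CPM) of DUSP6, SPRY2 and SPRED1 in each of the 24 libraries, by line (columns), time and treatment; points are replicates A and B and the line is their mean. In KG-1a DUSP6 falls from about 36.4 to about 8.29 with 8AA at 8 h and lies highest, at 58.2 and 61.8, with 8CA at 24 h.

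The drugs were compared directly, 8AA minus 8CA at the same dose and time. In MV4-11 at 8 h, 3 of 9 members differed, beside 6.66% of all genes. PIM1 was 1.59 times higher with 8AA (log2 0.67 ± 0.05, adjusted p = 6.1e-06), CISH 1.37 times higher (0.46 ± 0.06, adjusted p = 0.000327), and DUSP6 lower (-0.63 ± 0.10, adjusted p = 0.00125). At 24 h 5 differed, beside 21.2%. PIM1 (0.47 ± 0.05) and CISH (0.36 ± 0.06) were again higher, and STAT5A (-0.17 ± 0.05), STAT5B (-0.27 ± 0.05) and SOCS2 (-0.22 ± 0.06) were lower with 8AA. STAT5A lost its call without any of the 4 libraries (adjusted p = 0.0573 to 0.156), and SOCS2 without 8AA replicate A (0.0568) or 8CA replicate A (0.0807).

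In KG-1a at 8 h, 2 of 9 differed, beside 30.4% of all genes. Both were lower with 8AA, namely PIM1 (-0.51 ± 0.04, adjusted p = 1.1e-06) and DUSP6 (-2.10 ± 0.08, adjusted p = 1.2e-10). At 24 h 6 differed, beside 42%, and all were again lower with 8AA. They were DUSP6 (-1.37 ± 0.07), SOCS2 (-0.55 ± 0.11), PIM1 (-0.50 ± 0.04), PIM2 (-0.40 ± 0.07), STAT5A (-0.19 ± 0.06) and STAT5B (-0.17 ± 0.04). STAT5A lost its call without 8AA replicate B or either 8CA library (adjusted p = 0.0613 to 0.0728), and STAT5B without 8CA replicate B (0.0504). Without 8AA replicates A and B in turn, the differences were -1.46 and -1.30 for DUSP6, -0.51 and -0.60 for SOCS2, -0.54 and -0.47 for PIM1, -0.43 and -0.37 for PIM2, -0.28 and -0.11 for STAT5A and -0.18 and -0.15 for STAT5B.

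For several members no difference between the drugs passed the test, and the intervals bound its size. FLT3 in MV4-11 differed by 0.10 at 8 h (95% interval 0.02 to 0.18, adjusted p = 0.155) and by -0.06 at 24 h (-0.14 to 0.02). PIM2 in MV4-11 differed by -0.07 (-0.22 to 0.09) and -0.08 (-0.23 to 0.07). CISH in KG-1a differed by 0.02 at 8 h (-0.12 to 0.17) and 0.10 at 24 h (-0.05 to 0.24). Without 8AA replicate B, the 24 h difference of CISH was 0.19 and passed (adjusted p = 0.0195), and without replicate A it was -0.01.

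**Figure D5:**
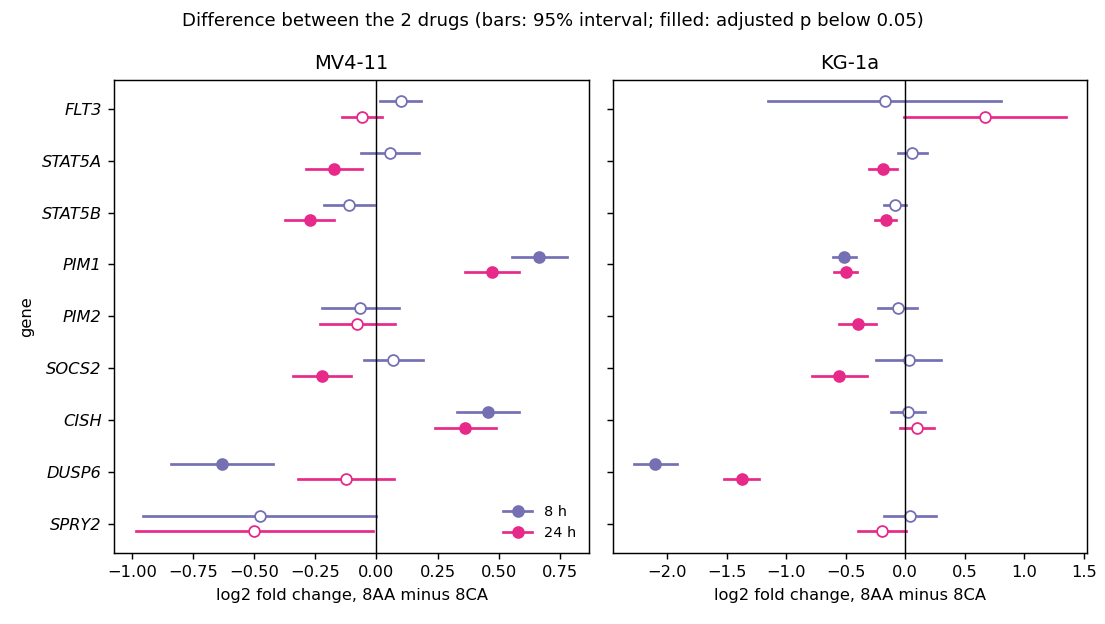
log2 difference between 8AA and 8CA for each gene at 8 h and 24 h in MV4-11 (left) and KG-1a (right); bars are 95% intervals and filled points have an adjusted p below 0.05, and SPRED1 is not drawn. PIM1 lies right of 0 in MV4-11 (0.67 and 0.47) and left of 0 in KG-1a (-0.51 and -0.50), and DUSP6 lies farthest left in KG-1a (-2.10 and -1.37).

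The response of the lines was compared in 1 fit of all 24 libraries. The response to 8CA at 8 h differed between the lines for 1 of 9 members (beside 1.15% of all genes), to 8AA at 8 h for 4 (11.1%), to 8CA at 24 h for 5 (11.2%) and to 8AA at 24 h for 7 (22.3%). With 8AA at 8 h the count was 2 without KG-1a untreated replicate A or MV4-11 8AA replicate B, and with 8AA at 24 h it was 4 without KG-1a untreated replicate A or KG-1a 8AA replicate B. PIM1 differed in all 4 of these tests and DUSP6 in 3. FLT3, with few counts in KG-1a, differed in none (adjusted p = 0.492 to 0.998).

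The response at 24 h was also set against that at 8 h within each line. In MV4-11 1 of 9 members differed with 8CA, beside 16.3% of all genes. With 8AA 0 did by edgeR's quasi-likelihood test, with 2 at an unadjusted p under 0.05, beside 4.63%. DESeq2 was not run for this test. In KG-1a 6 of 9 differed with 8CA, beside 23.9%, and 4 with 8AA, beside 18.3%. The latter count was 2 without untreated replicate A of either time or 8 h 8AA replicate A. The largest of these differences belonged to DUSP6 with 8AA in KG-1a, whose change was -2.10 at 8 h and -0.80 at 24 h (difference 1.29 ± 0.11, adjusted p = 6.5e-06; 1.21 and 1.36 without 24 h 8AA replicates A and B in turn).

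A list of 75 further genes of the pathway, in 6 groups, gives the surroundings of the members. In MV4-11, where 70 were tested, 3 were called higher and 9 lower with 8CA at 8 h, or 4.3% and 12.9% beside 4.58% and 5.77% of all genes. With 8AA at 8 h 14 and 14 were called, 20% each beside 13.6% and 15.6%. At 24 h it was 17 and 18 with 8CA, 24.3% and 25.7% beside 21.2% and 22.7%, and 13 and 13 with 8AA, 18.6% each beside 13.9% and 15.3%. Most of these shares lay near those of all genes.

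KG-1a had 68 of them tested. After 8CA at 8 h 0 passed by edgeR's quasi-likelihood test, with 12 at an unadjusted p under 0.05, beside 0.7% and 0.181% of all genes. With 8AA at 8 h 7 were higher and 26 lower, 10.3% and 38.2% beside 16.7% and 18%. At 24 h it was 21 and 13 with 8CA, 30.9% and 19.1% beside 23.4% and 24%, and 15 and 23 with 8AA, 22.1% and 33.8% beside 25.4% and 26.6%.

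Of the group of 13 other ERK output and feedback genes, several were lower after 8AA and 0 higher in both lines. In KG-1a at 8 h, 10 of the 12 tested were lower with 8AA, beside 18% of all genes, with a median log2 change of -1.04 against 0.01 over all genes. Of these, ETV4 and EGR1 had few counts in KG-1a, and without them 8 of 10 were lower (median -0.65). At 24 h 7 of 12 were lower, beside 26.6% of all genes (median -0.32), and 6 of 10 without ETV4 and EGR1. The count at 24 h was 7 without 8AA replicate A and 6 without 8AA replicate B. Without KG-1a 8 h untreated replicate A the early count was 6 in place of 10. In MV4-11, 6 of 11 were lower with 8AA at 8 h, beside 15.6% (median -0.43), and 5 at 24 h, beside 15.3% (median -0.41), where DUSP6 itself did not pass. With 8CA the counts were 0 of 12 at 8 h (0 also at an unadjusted p under 0.05 by edgeR and 0 by DESeq2, beside 0.7% higher and 0.181% lower of all genes) and 4 higher with 1 lower at 24 h (beside 23.4% and 24%) in KG-1a, and 2 lower at 8 h (beside 5.77%) and 4 lower with 2 higher at 24 h (beside 22.7% and 21.2%) in MV4-11. The 4 higher in KG-1a were 2 without 24 h untreated replicate A, and the 2 lower in MV4-11 at 8 h were 1 without untreated replicate A. The 2 higher in MV4-11 at 24 h were 1 without 8CA replicate A or either untreated library.

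ETV5, an ETS factor induced by ERK, fell with 8AA from a mean of 40.5 to 7.73 CPM in KG-1a at 8 h (-2.38 ± 0.09) and from 54.0 to 25.7 CPM at 24 h (-1.07 ± 0.07; -0.99 and -1.15 without 8AA replicates A and B in turn). With 8CA at 24 h in KG-1a it rose to 71.4 CPM (0.41 ± 0.07). In MV4-11 it fell from 11.4 to 3.89 CPM at 8 h (-1.59 ± 0.15) and from 15.5 to 8.98 CPM at 24 h (-0.81 ± 0.12). ETV5 and SPRED2 are named here because their levels went most like those of DUSP6, so their moving with DUSP6 is no separate result. SPRED2, a relative of SPRED1 with more counts, fell with 8AA in KG-1a from 46.4 to 18.1 CPM at 8 h (-1.35 ± 0.08) and from 49.5 to 33.0 CPM at 24 h (-0.59 ± 0.07; -0.56 and -0.61 without 8AA replicates A and B in turn), and in MV4-11 at 8 h (-0.43 ± 0.07). It rose with 8CA at 24 h in KG-1a (0.25 ± 0.07) and MV4-11 (0.21 ± 0.06), calls lost without KG-1a untreated replicate A (adjusted p = 0.0705) and, in MV4-11, without 8CA replicate A or either untreated library (0.06 to 0.106). FOSL1, an AP-1 subunit, was lower in 7 of the 8 treated groups (-1.26 to -0.39), and none of these calls rested on 1 library. ETV4 fell in MV4-11 with 8AA by 2.18 ± 0.15 at 8 h and by 1.61 ± 0.13 at 24 h. In KG-1a it averaged 0.0436 to 0.782 CPM and its change is not read. EGR1, an immediate early gene, was lower in all 4 treated groups of MV4-11 (-1.55 to -0.85), a call lost with 8CA at 8 h without untreated replicate A (-0.58, adjusted p = 0.0686).

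Most genes named in this part were picked because they were called in 1 direction in at least 5 of the 8 responses. Their counts of treated groups restate that rule, and the share of all genes called as often is not given. Among the carriers of the signal, GAB2, a docking protein for SHP2 and PI3K, was higher in 7 of the 8 treated groups (0.18 to 1.37). It rose most with 8CA at 24 h in KG-1a, from a mean of 18.6 to 48.0 CPM. PTPN11, which encodes SHP2, was lower in 7 (-0.44 to -0.13), AKT1 in 6 (-0.31 to -0.14) and HRAS in 5 (-0.59 to -0.33). Of the other receptors, KIT was higher in 5 (0.56 to 1.10), from a mean of 2.70 to 5.89 CPM with 8AA at 24 h in MV4-11. CBLB, a ubiquitin ligase that turns receptors over, was higher in 5 (0.25 to 0.59). SOCS1 was lower with 8AA in KG-1a at both times (-0.93 and -0.74).

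Other STAT5 targets did not follow 1 direction, and the counts of those named here restate the same rule. The list does not separate genes that STAT5 induces from genes that it represses, so the signs are not read as STAT5 output. BCL6, a repressor that STAT5 is known to bind, was higher in 6 of the 8 treated groups (0.65 to 1.31), and CCND3, a cyclin, was lower in 7 (-0.69 to -0.28). PIM3, the third PIM kinase, was lower in 6 (-0.54 to -0.21) and OSM, a cytokine, in 5 (-0.71 to -0.44), while PIM1 and PIM2 moved as given above. Leaving out 1 library ended 21 of the calls of these named genes, 4 of the 5 of CBLB and 3 of the 6 of PIM3 among them.

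The genes whose levels went most like a member's were taken from the smaller of its 2 correlations over the 12 libraries of each line, among 11484 genes, as a description. The libraries share treatments and depth, so the values carry no p. For DUSP6 they were PTPRE (0.901), ETV5 (0.895) and SPRED2 (0.85), of which ETV5 and SPRED2 are also in the ERK output group. ETV5 and SPRED2 were named above for this likeness alone, so their moving with DUSP6 restates the choice. PIM1 went with BHLHE40 (0.931), FLT3 with ZCCHC6 (0.904) and CTSS (0.887), STAT5A with IGBP1 (0.929) and STAT5B with FLRT1 (0.933). In KG-1a the correlations of FLT3, 0.907 and 0.887, rest on 3 to 28 counts per library and say little about likeness there. SOCS2 went with NBR1 (0.944), CISH with IFITM3 (0.831), PIM2 with JADE2 (0.819) and SPRY2 with CENPU (0.833).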

How the data were processed

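The authors deposited raw counts, whole numbers of reads per gene, with symbol, position and exon length. The submitters' notes name Trimmomatic, STAR 2.6.0, HTSeq 0.11.1 and edgeR, and the builds hg19 and hg38 with no role; strand use is not given in the sources used here. By symbol, 22414 genes matched GENCODE 29 (GRCh38), of which 3165 overlapped their GRCh38 position, the members in 0 of 10 cases, so the table's coordinates are not printed. All 24 columns were mapped to libraries by the labels.

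Low genes were removed in R 4.3.3 by filterByExpr at a minimum count of 10, and TMM scaled the libraries. edgeR 4.0.16's quasi-likelihood test was fitted to the 12 libraries of a line (12800 genes in MV4-11, 12711 in KG-1a) or to all 24 (14055 genes), with 1 coefficient per group, Benjamini-Hochberg adjustment over all genes and a threshold of 0.05. "Called" means past that threshold. CPM uses TMM-scaled totals. Intervals are 95%, and those on summed counts cover counting error only. The steps were tested on simulated data. Alternatives were other scalings and filters, a replicate block, other sets of libraries, each library left out, a fold threshold and DESeq2 1.42.0.

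The members, the 75 pathway genes and the other lists were chosen with earlier results of these data known. Pathway genes are named where called in 1 direction in at least 5 of 8 responses, where their change is the largest of their list, or where most like DUSP6. A gene that this rule names is not reported here. The 3 genes most like a member were computed on log2 CPM with a prior count of 2. Promoters are from RefSeq.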

Additional observations from a re-analysis of the deposited data

Results flagged for a closer look

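The response to a drug differed between the lines, MV4-11 minus KG-1a on the log2 scale, in 17 tests of members by edgeR's quasi-likelihood test over 14055 genes. PIM1 differed in all 4 tests, by -0.53 ± 0.07 (SE; adjusted p = 7.5e-05) with 8CA at 8 h, 0.68 ± 0.07 (7.7e-07) with 8AA at 8 h, -0.71 ± 0.07 (1.3e-07) with 8CA at 24 h and 0.26 ± 0.07 (0.00575) with 8AA at 24 h. DUSP6 differed by 1.66 ± 0.14 (4.4e-08) with 8AA at 8 h, -0.61 ± 0.11 (0.00097) with 8CA at 24 h and 0.64 ± 0.12 (0.000345) with 8AA at 24 h. STAT5A differed by 0.25 ± 0.08 (0.0494) with 8AA at 8 h, 0.32 ± 0.08 (0.01) with 8CA at 24 h and 0.33 ± 0.08 (0.00399) with 8AA at 24 h.

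CISH differed by 0.35 ± 0.09 (adjusted p = 0.0114, edgeR) with 8AA at 8 h and 0.30 ± 0.09 (0.0205) with 8AA at 24 h. PIM2 differed by -0.70 ± 0.11 (0.000126) with 8CA and -0.38 ± 0.11 (0.0141) with 8AA at 24 h, and SOCS2 by -0.64 ± 0.12 (0.00074) with 8CA at 24 h. STAT5B differed by -0.22 ± 0.06 (0.012) and SPRY2 by -0.66 ± 0.23 (0.0385) with 8AA at 24 h. Without KG-1a 24 h 8AA replicate B, 4 rather than 7 members differed with 8AA at 24 h, and PIM1 (0.15, adjusted p = 0.115), STAT5A (0.17, 0.108) and CISH (0.13, 0.335) no longer did. STAT5A with 8AA at 8 h lost its call without any of 5 libraries (0.0752 to 0.217), and its difference with 8CA at 24 h without KG-1a 8CA replicate A (0.0574) or MV4-11 untreated replicate A (0.0542).

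Further losses of single libraries were as follows. CISH with 8AA at 8 h went without KG-1a untreated replicate A (adjusted p = 0.0785) or MV4-11 8AA replicate B (0.0619), and at 24 h also without KG-1a untreated replicate A, MV4-11 8AA replicate B or MV4-11 untreated replicate B (0.0642 to 0.122). With 8AA at 24 h, PIM2 went without KG-1a untreated replicate A (0.1) or MV4-11 8AA replicate A (0.0635), STAT5B without MV4-11 8AA replicate A (0.0578) or untreated replicate A (0.0526), and SPRY2 without any of 5 libraries (0.0543 to 0.295).

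The response at 24 h minus that at 8 h differed from 0 in 11 tests of members. In MV4-11 this held for STAT5A with 8CA (0.36 ± 0.08, adjusted p = 0.00574, edgeR). In KG-1a with 8CA it held for SOCS2 (0.89 ± 0.18, 0.00184), PIM2 (0.74 ± 0.11, 0.000204), DUSP6 (0.57 ± 0.10, 0.000586), STAT5B (0.33 ± 0.06, 0.00133), PIM1 (0.33 ± 0.06, 0.00163) and STAT5A (0.28 ± 0.08, 0.0198). In KG-1a with 8AA it held for DUSP6 (1.29 ± 0.11, 6.5e-06), PIM2 (0.40 ± 0.11, 0.0183), PIM1 (0.34 ± 0.06, 0.0019) and STAT5B (0.25 ± 0.06, 0.0103). STAT5A in KG-1a lost its call without any of 7 libraries (0.0573 to 0.123). Without KG-1a 8 h untreated replicate A, 8 h 8AA replicate A or 24 h untreated replicate A, STAT5B (0.0559 to 0.0623) and PIM2 (0.0733 to 0.122) with 8AA lost theirs.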

How the results depend on the processing

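Over the alternatives, 2697 values of members were computed, of which 2512 stayed on the same side of the threshold, 168 lost a call, 17 gained one and 0 reversed. Of 94 called values, 56 kept their call under every alternative other than a fold threshold, and the cause of the losses was not tested. DESeq2 gave no adjusted p for SPRED1 at 8 h in KG-1a, nor there for FLT3 with 8CA. The values of members counted in this paragraph include SPRED1, whose test is not read. The counts of members called below leave it out.

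With an absolute log2 change of at least 1 also required, the members called were 0 in all 4 responses of MV4-11 (from 3, 7, 5 and 5). In KG-1a they were 0 with 8CA at 24 h (from 6). With 8AA at 8 h in KG-1a 1 member stayed called (from 3), DUSP6. With 8AA at 24 h in KG-1a it was 0 (from 4). ERK output genes called lower were then 0 (from 2), 3 (from 6), 1 (from 4) and 2 (from 5) in MV4-11 with 8CA and 8AA at 8 h and 8CA and 8AA at 24 h. In KG-1a they were 6 with 8AA at 8 h (from 10), 0 with 8CA at 24 h (from 1) and 3 with 8AA at 24 h (from 7). Those called higher with 8CA at 24 h were 1 in MV4-11 (from 2) and 0 in KG-1a (from 4). The MV4-11 count was also 1 with at least 10 counts in every library and with DESeq2.

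DESeq2 and a fit of only the 4 libraries compared each called 2 members (from 4) with 8AA at 24 h in KG-1a. Each called 4 (from 7) with 8AA at 8 h in MV4-11. The fit of 4 libraries called 1 (from 0) with 8CA at 8 h in KG-1a, PIM1. With library size only, 2 members (from 1) differed between 24 h and 8 h of 8CA in MV4-11.

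Leaving out 1 library at a time gave these ranges of members called. In MV4-11 they were 1 to 3 (8CA, 8 h), 3 to 5 (8AA, 8 h), 3 to 5 (8CA, 24 h) and 2 to 5 (8AA, 24 h). In KG-1a with 8AA, fewer members were also called without some single libraries, at 8 h and at 24 h. The drugs differed at 24 h in 3 to 4 members in MV4-11 and 4 to 6 in KG-1a, the lines in 2 to 4 (8AA, 8 h) and 4 to 6 (8AA, 24 h), the times of 8AA in KG-1a in 2 to 4, and untreated times in 0 to 1 in MV4-11 and 0 in KG-1a. ERK output genes ranged from 6 to 10 lower (KG-1a, 8AA, 8 h), 1 to 2 lower (MV4-11, 8CA, 8 h), 2 to 4 higher (KG-1a, 8CA, 24 h) and 1 to 2 higher (MV4-11, 8CA, 24 h).

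The untreated line difference of PIM2 lost its call with the 8 h libraries only (adjusted p = 0.136) and with library size only (0.242), and that of CISH with the 8 h libraries only (0.0732), no filter (0.0853) and upper quartile scaling (0.0687). The replicate letters are shared between groups, and nothing in the labels says that a letter marks a shared culture or day. The deviations of same-lettered libraries correlated at 0.132 to 0.159 in the 3 comparisons of MV4-11 at 8 h and at -0.0848 to 0.0878 in the other 9, so the block is given as an alternative only. With a replicate block, no member lost a call and 4 responses of MV4-11 gained one, CISH with 8CA at 24 h (adjusted p = 0.0498), PIM2 with 8AA at 8 h (0.0146), STAT5A with 8CA at 8 h (0.041) and STAT5B with 8AA at 24 h (0.044), so that 8 rather than 7 members were called with 8AA at 8 h.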
